A study of Saccharomyces cerevisiae with 4 samples.

Results

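The genes described here encode the proteins of the cytosolic ribosome of budding yeast, Saccharomyces cerevisiae. They were chosen by name: nuclear protein-coding genes whose symbol is RPL or RPS with a number and an optional A or B, plus RPP0, RPP1A, RPP1B, RPP2A and RPP2B. This gave 137 of the 6002 nuclear protein-coding genes in the R64 gene table, 81 for the large subunit and 56 for the small subunit. They lie on 15 of the 16 nuclear chromosomes. Of them, 118 form 59 pairs of paralogues named A and B, and 19 have no such partner.

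Chromatin immunoprecipitation (IP) followed by sequencing was done with an antibody against the HA tag in 3 strains. LRY1926 carried HA-tagged Sir2, LRY0558 carried HA-tagged Hst1, and the parental strain LRY1009 gave the mock IP. The labels do not say whether the tagged copy was the cell's only copy of either protein. All were grown at 30 °C in rich medium with glucose to early log phase, then crosslinked with 10 mM dimethyl adipimidate and with 1% formaldehyde, for 1 hour each. Each IP had 1 peak list, with 159 peaks for Sir2, 692 for Hst1 and 3 for the mock IP. There was therefore no replicate check and no test, and the intervals below (95%, exact Clopper-Pearson) cover counting error over genes only. The 4th sample, genomic input from LRY1009, was not analysed here. The depth behind the lists is unknown, because they hold no read counts.

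Ribosomal protein (RP) genes are among the most strongly transcribed genes of growing yeast. Their promoters are typically bound by Rap1 together with Fhl1, Ifh1 and, at many of them, Hmo1, and their output follows nutrient signals through the TOR and protein kinase A pathways. Most exist as duplicate copies left by an ancient duplication of the genome, and the copies encode identical or nearly identical proteins from promoters that have diverged. Sir2 is the deacetylase of the SIR complex, which Rap1 helps to recruit at telomeres and silent mating loci. Hst1, its paralogue, acts with Sum1 and Rfm1 as a repressor of sporulation genes.

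Hst1 peaks reached a minority of RP promoters, with low folds, and Sir2 peaks reached none. A gene was called where the summit of a peak, its highest point, lay in the 500 bp upstream of the annotated start. Hst1 called 14 of 137 RP genes, or 10.2% (interval 5.70 to 16.6%), and 8.41% of all protein-coding genes. The background percentage lies inside the interval, so the RP share is near the background and is not a result about these genes. Sir2 called 0 of 137, which allows a share of up to 2.19%, and it called 0.467% of all genes. That background lies below the limit, so the Sir2 count is not a result about these genes either. The 14 called genes were spread over 9 chromosomes.

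Peaks were next counted inside RP gene bodies. Summits inside the gene body numbered 0 of 137 in the Hst1 list and 0 of 137 in the Sir2 list, against 1.93% and 0.983% of all genes. A count of 0 of 137 allows up to 2.19%, which is above both, so these counts are not a result about RP genes. RP genes are short, so the bases themselves were also compared. Of 102 kb of RP gene bodies, 0.213% lay in Hst1 peaks, against 1.06% of all protein-coding bodies. The RP value is 218 bases in 2 genes, 180 of them in RPL29, and the difference was not tested. Of the 67.2 kb of RP upstream sequence 7.19% lay in Hst1 peaks, which is close to the 7.03% for all genes. The Sir2 and mock lists covered 0 bases of either RP region. Over all protein-coding genes Sir2 peaks covered 1.63% of upstream and 1.52% of body bases, and mock IP peaks covered 0.0372% and 0.0439%. These differences were not tested.

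Coding sequences of RP paralogues are often so alike that short reads cannot be assigned to 1 copy, and no source used here says how such reads were handled. Body values of paired genes are uncertain for that reason. Of the 19 members with no paralogue, 0 had a summit in the body and 1 had any Hst1 peak base there.

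With any base of a peak counted, in the 500 bp upstream or in the body, Hst1 touched 18 of 137 RP genes and 14.6% of all genes. In the body alone it touched 2 RP genes, RPL41B and RPL29, and 6.01% of all genes. Sir2 touched 0 of 137 upstream or in the body, against 2.80% of all genes. In the body alone it touched 0 of 137, against 2.50%. The limit of 2.19% lies below both shares, but the exact interval reaches 2.66%, above the second. No RP gene lay within 30 kb of a chromosome end, and the Sir2 difference was not tested. The mock IP touched 0 of 137 RP genes and 0.0666% of all genes. A total of 119 RP genes had no peak base of any list in these regions.

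The 14 called genes fall into 7 of the small subunit and 7 of the large subunit. RPS30B (YOR182C) had the highest fold. It encodes a small-subunit protein that mammals make as a fusion to a ubiquitin-like protein. Its Hst1 peak spanned XV, 678867 to 679250, with a fold of 3.25 over the caller's local background and a −log10 q of 43.2, and it ranked 163 of 692 by fold. The summit, at 679053, lay 260 bp upstream of the RPS30B start but inside FYV12, an uncharacterized gene on the other strand.

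RPS9A (YPL081W) came next. Its product sits at the channel through which mRNA enters the small subunit. The peak (XVI, 404305 to 404824) had a fold of 2.52, a −log10 q of 17.3 and a summit 390 bp upstream. RPS18A (YDR450W) encodes a protein of the small-subunit head that touches the large subunit. Its peak (IV, 1359319 to 1359633) had a fold of 2.30, a −log10 q of 13.9 and a summit 476 bp upstream. These 3 genes of the small subunit held the 3 highest folds.

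Among the other small-subunit genes the folds were all below 2. RPS6B encodes a protein that is phosphorylated in response to nutrients, and its peak (II, 592938 to 593261) had a fold of 1.92 at 367 bp upstream. RPS16A, whose product reaches towards the transfer RNA in the peptidyl site, had a fold of 1.85 at 392 bp (XIII, 551431 to 551692). RPS4A encodes a protein of the small-subunit body. It had the weakest peak of all, at 1.52 fold with a −log10 q of 3.80, which ranked 684 of 692 (X, 703294 to 703847, 364 bp upstream).

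In the large subunit RPL41B led. It encodes a very short basic peptide, and its peak was the only one of the 14 to run over the start of the gene. That peak (IV, 221764 to 222204) had a fold of 2.21, a −log10 q of 12.3 and a summit 292 bp upstream. RPL9B, whose product lies close to the site where translation factors bind, followed with a fold of 2.07 at 436 bp (XIV, 499065 to 499468). RPL31B and RPL19A encode proteins near the exit of the tunnel for the growing peptide. RPL31B had a fold of 2.06, with a −log10 q of 10.9, at 471 bp (XII, 932051 to 932343), and RPL19A had a fold of 1.85 at 377 bp (II, 415552 to 415751).

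Weak peaks also lay at RPL13B and RPL1B. RPL13B had a fold of 1.85 at 329 bp, from the same peak as RPS16A. RPL1B encodes the protein of the mobile L1 stalk, where spent transfer RNA leaves, and had a fold of 1.74 at 302 bp (VII, 254195 to 254437).

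**Figure D1:**
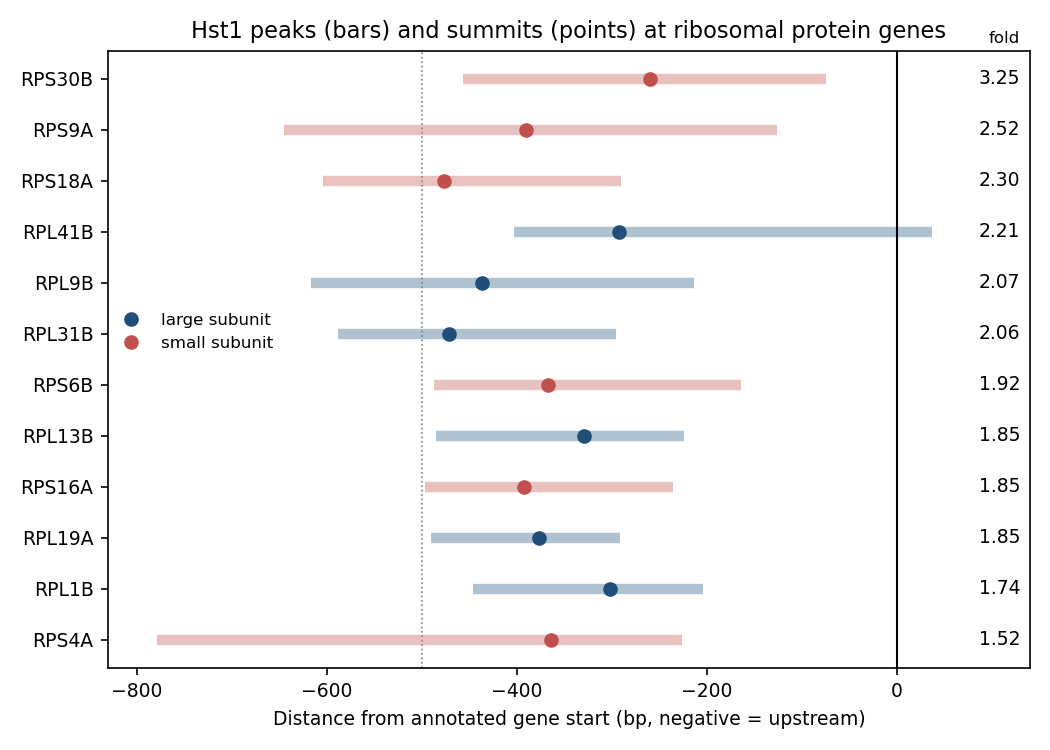
Hst1 peaks (bars) and summits (points) at 12 of the 14 called ribosomal protein genes, placed by distance in bp from the annotated start (solid line) and ordered by fold, which is printed at the right. The dotted line marks 500 bp upstream; the summits shown lie between 260 and 476 bp upstream, and 1 peak, at RPL41B, runs over the start.

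The summits lay at some distance from the starts. Distances were counted per gene, so the summit shared by RPL13B and RPS16A counts for both. They ran from 202 to 476 bp upstream, with a median of 365.5 bp, and 8 of the 14 were 300 to 400 bp. For the other called protein-coding genes, 491 distances, also counted per gene, ran from 3 to 500 bp upstream with a median of 319 bp. Of those 491, 87 (17.7%) were less than 200 bp from the start, against 0 of 14 at RP genes. In the bin from 400 to 300 bp upstream there were 5.84 Hst1 summits per 100 RP genes and 2.52 per 100 genes overall. The RP value is 8 when counted per gene, with the shared summit counted for both of its genes. Whether so few RP summits differ from the rest in position was not tested.

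**Figure D2:**
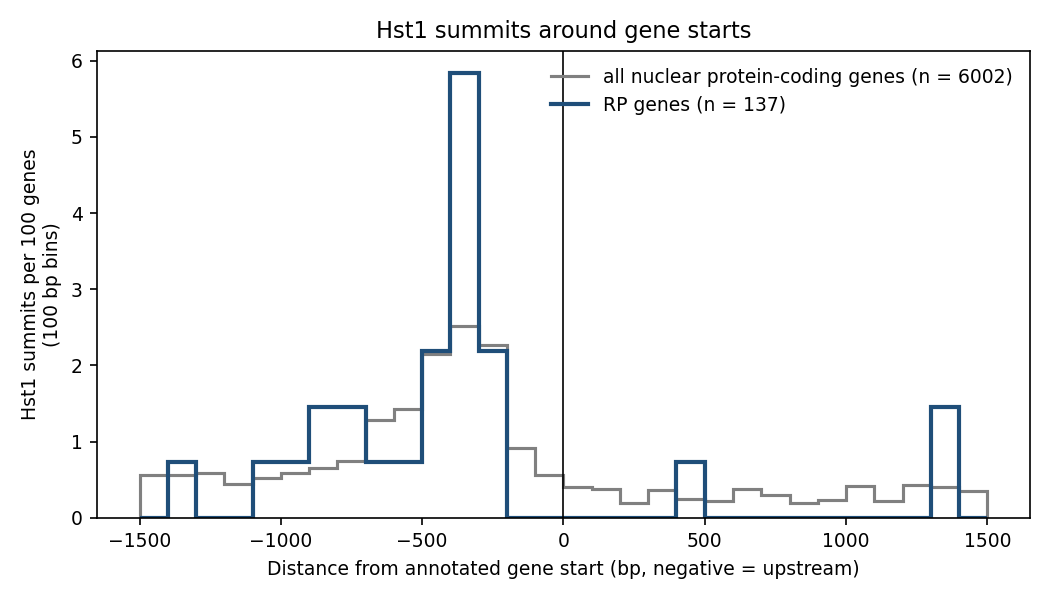
Hst1 summits per 100 genes in bins of 100 bp from 1500 bp upstream to 1500 bp downstream of annotated starts, for 137 ribosomal protein genes (blue) and all 6002 nuclear protein-coding genes (grey). A summit is counted for every gene in whose range it lies. The blue line is highest from 400 to 300 bp upstream (5.84 against 2.52) and is at 0 from 200 bp upstream to 400 bp into the gene.

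Within the Hst1 list these peaks were among the weaker ones. The 14 genes shared 13 peaks, with a median fold of 2.00 (1.52 to 3.25) and a median rank of 447. The 399 other peaks with a summit upstream of a protein-coding gene had a median fold of 2.33 and a median rank of 305. The median −log10 q was 8.68 at RP promoters and 13.5 at the others. Of the 13 RP peaks 5 had a −log10 q of at least 10 (38.5%), against 260 of 399 (65.2%). RP peaks were also shorter, with a median of 315 bp against 414 bp.

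**Figure D3:**
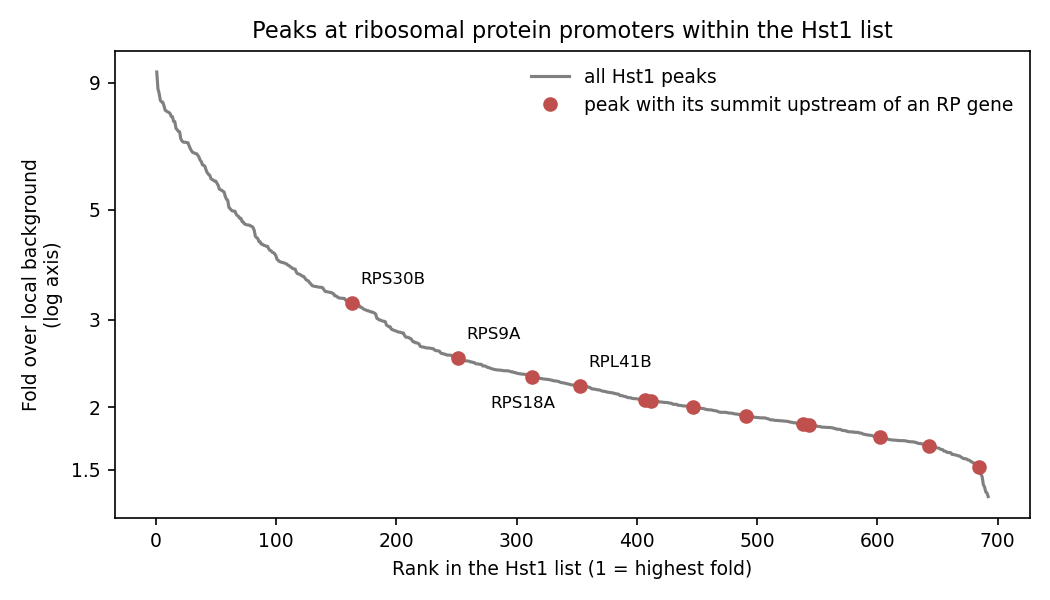
Fold over local background (log axis) of all 692 Hst1 peaks against their rank (grey line), with the 13 peaks at ribosomal protein promoters as red points. The best of them, at RPS30B, ranks 163, and the lowest ranks 684.

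Paralogues were next compared, which asks whether both copies of a duplicated RP gene carried Hst1. In 14 of 59 pairs 1 copy was called, in 0 pairs both were, and in 45 pairs neither was. Only 8.41% of all protein-coding genes were called, so shared calls among 59 pairs would be rare, and the 0 is not a result about these pairs. Copy A alone was called in 6 pairs, among them RPL19, RPS4, RPS9, RPS16 and RPS18. Copy B alone was called in 8, among them RPL1, RPL9, RPL13, RPL31, RPL41, RPS6 and RPS30. All 14 calls fell on paired genes, 11.9% of 118, while the 19 genes without a paralogue had 0, which allows up to 15.8%. With counts this small, the split between A and B and that between paired and single genes were not tested.

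The distance to the nearest Hst1 summit was then taken for the copies without a call. In the 14 pairs with 1 call, the uncalled copy had its nearest summit 848 bp to 19.3 kb from its start, with a median of 4.11 kb. Over all protein-coding genes that median was 6.72 kb, and over all RP genes it was 4.89 kb. Both sets include called genes, and their difference from the uncalled copies was not tested. RPS30A, partner of the strongest gene, had its nearest summit 15285 bp away, and RPS9B had it 8837 bp away. In the 45 pairs with no call, the nearest summit lay 673 bp to 50.0 kb from the 90 starts, with a median of 6.80 kb, close to that of all genes.

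**Figure D4:**
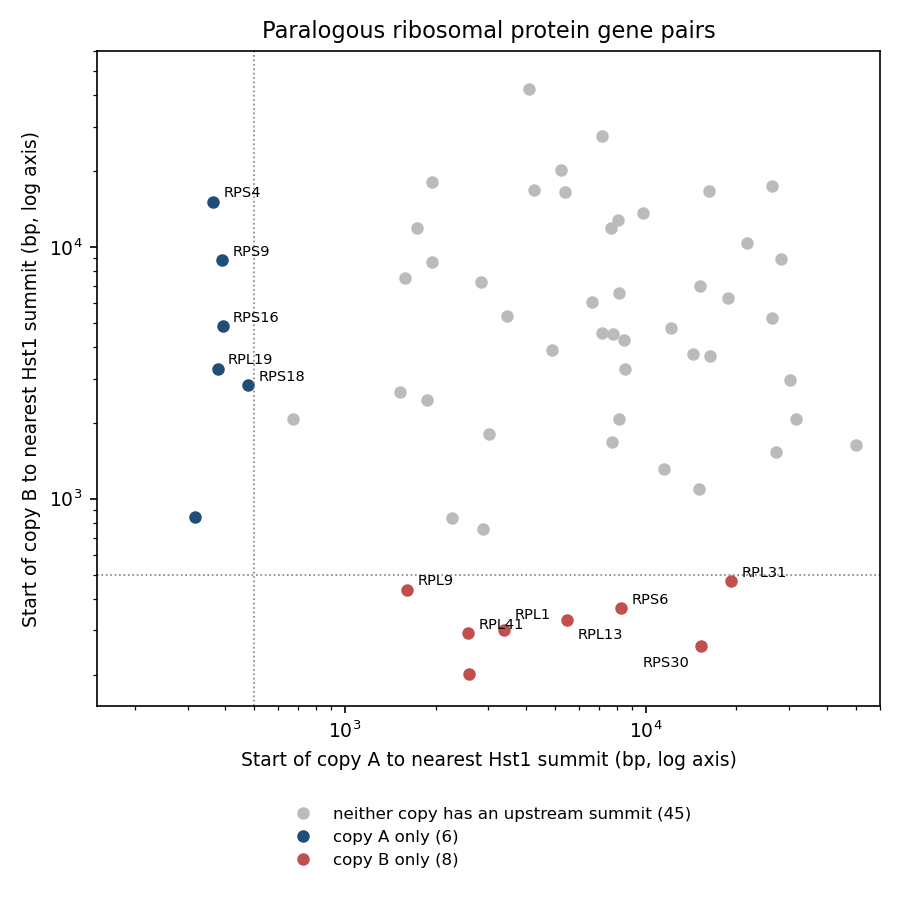
Distance in bp from the start of copy A (x, log axis) and of copy B (y, log axis) to the nearest Hst1 summit, in either direction, for 59 pairs of paralogues. Blue points are the 6 pairs with copy A called, red points the 8 with copy B called, and grey points the 45 with neither; the lower left corner, where both copies would be within 500 bp (dotted lines), is empty.

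Large and small subunit genes were compared as sets. Hst1 called 7 of 81 large-subunit genes (8.64%, interval 3.55 to 17.0%) and 7 of 56 small-subunit genes (12.5%, interval 5.18 to 24.1%). The intervals overlap widely. The acidic stalk proteins RPP0, RPP1A, RPP1B, RPP2A and RPP2B, counted with the large subunit, had 0 calls. Downstream of RPP0, however, an Hst1 summit lay 458 bp past the gene end (XII, 807055 to 807601, fold 3.42).

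Promoters shared by divergent genes were examined because a summit there lies upstream of both. The nearest upstream gene lay on the other strand for 78 RP genes and on the same strand for 59. Hst1 called 9 of 78 divergent RP genes (11.5%, interval 5.41 to 20.8%) and 5 of 59 tandem ones (8.47%, interval 2.81 to 18.7%). Over all protein-coding genes the shares were 8.84% of divergent and 7.69% of tandem genes, both inside these intervals. In 8 of the 9 divergent cases the summit lay between the starts of the 2 genes, at 38.7 to 54.4% of the gap as measured from the RP gene. The exception was RPS30B, whose gap to FYV12 is 78 bp. The summit shared by RPL13B and RPS16A counts for both genes, at 45.7% and 54.4%. No such positions are given here for the other called divergent genes, so they are not a result about RP genes.

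In 5 promoters both genes encode ribosomal proteins, and 1 of these held an Hst1 summit. So few promoters allow no comparison with the 8.84% of all divergent protein-coding genes called. The summit lay between RPL13B and RPS16A, a gap of 720 bp, 329 bp from the former and 392 bp from the latter. This promoter has a duplicate elsewhere in the genome, between RPS16B and RPL13A on IV, with a gap of 634 bp. That duplicate had 0 Hst1 peaks, and the nearest summit lay 5.15 kb from its middle. The other shared RP promoters, RPL24A with RPL30, RPS22A with RPL39, and RPS15 with RPP2A, also had 0 Hst1 peaks, the nearest summits lying 2.26, 3.92 and 11.1 kb from the middle.

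The genes across the other called divergent promoters have varied roles. They were MOT1, which encodes an ATPase that removes TATA-binding protein from DNA, UTP6, for processing of ribosomal RNA, MRM2, for methylation of mitochondrial ribosomal RNA, AAC3, for a mitochondrial ADP/ATP carrier, SRF1, for a regulator of phospholipase D, and YJR146W, which is uncharacterized. For 9 of the 14 RP genes their own start was the nearest annotated start to the summit, and for 5 another was. The latter were RPS30B (FYV12 at 181 bp), RPL31B (YLR406C-A at 129 bp), RPL9B (YNL067W-B at 172 bp), RPL19A (AAC3 at 345 bp) and RPS16A (RPL13B at 329 bp). The same count over all called protein-coding genes is not given here, so these counts are not a result about RP genes. A summit does not say which of these genes a deacetylase acts on.

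RP genes have long upstream gaps, which gives the 500 bp stretch more intergenic sequence. The median gap to the next gene was 630 bp, against 414 bp for all protein-coding genes, and 70.1% of RP genes had a gap of at least 500 bp, against 39.5%. Among genes with such a gap Hst1 called 9 of 96 RP genes (9.38%, interval 4.38 to 17.1%) and 12.2% of all genes. Among genes with a shorter gap it called 5 of 41 RP genes (12.2%, interval 4.08 to 26.2%) and 5.95% of all genes. In 3 of the 14 genes (RPS30B, RPL31B and RPL9B) the summit lay beyond the gap, at or past the next gene. With promoters ended at the next gene, called RP genes fell from 14 to 11, and all called protein-coding genes from 505 to 398.

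**Figure D5:**
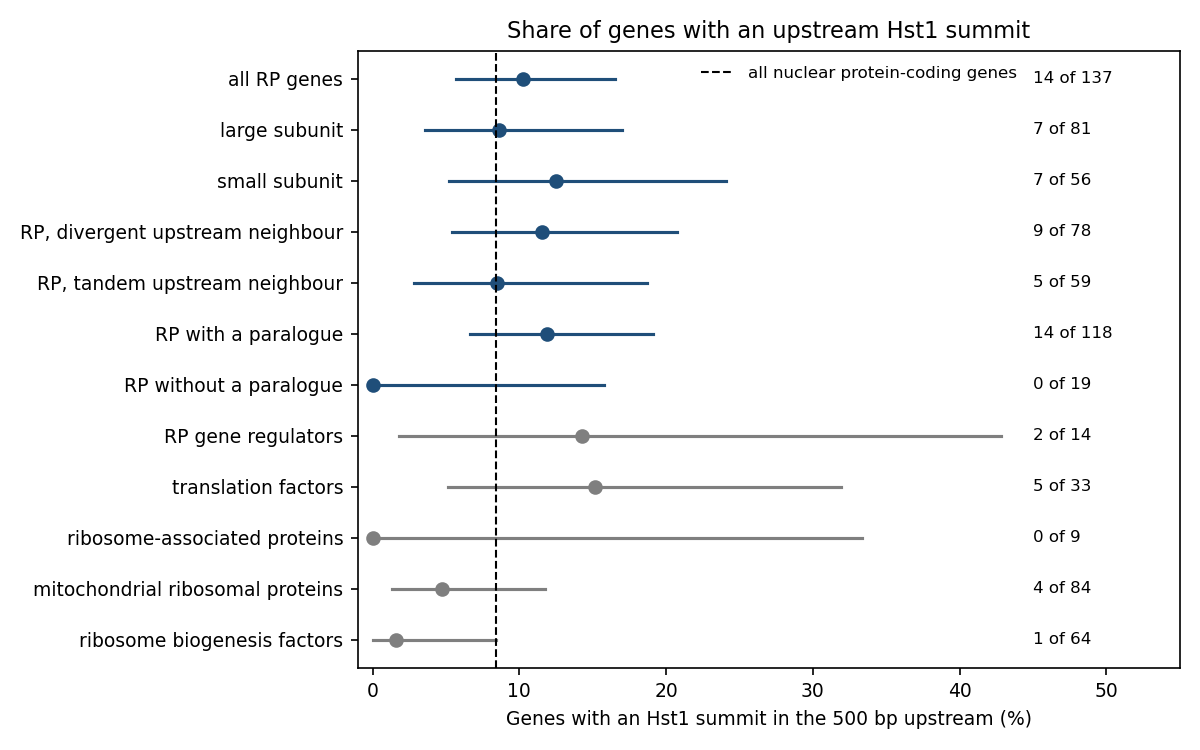
Percentage of genes with an Hst1 summit in the 500 bp upstream, for ribosomal protein genes and their subsets (blue) and 5 related gene lists (grey), with exact 95% intervals as lines, or, for counts of 0, the limit that 3 genes would give. The dashed line is the 8.41% of all nuclear protein-coding genes; it crosses the lines of all 12 sets except that of ribosome biogenesis factors, which ends at 8.40%.

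Strong Hst1 peaks lay near some RP genes without having their summit in the promoter. The strongest neighbour (XV, 901333 to 904517, fold 7.70) put 362 bases into the upstream stretch of RPL20B, but its summit lay 1807 bp from the RPL20B start, by YOR314W and beyond SPS4, a sporulation gene. A peak on VI (221768 to 223637, fold 6.94) covered all 180 bases of RPL29 and put 151 bases upstream of RPL2A. Its summit lay 41 bp from the start of RRT5, between both RP genes. RPL29 also had 239 upstream bases in a weak peak (VI, 223699 to 224226, fold 1.83) whose summit was 55 bp from the start of MIN10.

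Just beyond the 500 bp limit, the next summits upstream were at RPL29 (591 bp), RPL26A (673 bp), RPS3 (757 bp), RPS25B (759 bp) and RPS26B (836 bp). Just inside it were RPS18A (476 bp) and RPL31B (471 bp). RPS26B had the highest fold of those outside, 3.39 (V, 422541 to 423404), nearer to COM2, a transcription factor gene. The RPL26A summit lay inside the transfer RNA gene TRR4. In the 500 bp downstream of the gene end Hst1 had a summit at 2 of 137 RP genes, RPL29 and RPP0, against 4.32% of all genes.

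Distances from RP starts to Sir2 summits were also taken. The Sir2 summit nearest to an RP start lay 1817 bp upstream of RPL29 (fold 2.84). The same summit was the nearest to RPL2A, at 3836 bp. RPS25A followed at 3207 bp (fold 1.93) and RPL26A at 4166 bp (fold 2.97). Within 5 kb of the start Sir2 had a summit at 4 of 137 RP genes (2.92%), against 6.26% of all genes, and the median distance was 75.3 kb against 66.0 kb. No RP gene lay within 30 kb of a chromosome end, where 6.48% of all protein-coding genes lie; the RP gene closest to an end was RPL8A, at 35.3 kb. For Hst1, 69 of 137 RP genes (50.4%) had a summit within 5 kb of the start, against 41.7% of all genes. Whether the Sir2 or Hst1 distances differ between RP genes and all genes was not tested.

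Other gene lists of translation had Hst1 shares on both sides of the 8.41% of all genes. They had no Sir2 call, against 0.467% of all genes. Of 14 regulators of RP genes, Hst1 called 2 (14.3%, interval 1.78 to 42.8%), ABF1 and REB1, which encode general regulatory factors that bind DNA. ABF1 had a fold of 2.99 with a summit 34 bp upstream (XI, 226084 to 227159), and REB1 had a fold of 1.86 at 142 bp, with another peak of fold 2.42 inside the gene. RAP1, FHL1, IFH1, SFP1 and HMO1 had no upstream summit. Of 33 translation factor genes 5 were called (15.2%, interval 5.11 to 31.9%). Both intervals include the share of all genes. The 5 were SUP35, for a release factor (fold 4.63), TEF2 (2.84) and TEF1 (2.24), for the elongation factor that brings transfer RNA, and NIP1 (2.62) and HCR1 (2.22), for initiation factor subunits.

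Of 84 genes with names of the mitochondrial ribosome and its partners, 4 were called (4.76%, interval 1.31 to 11.7%). MRPL35 (fold 5.45) and MRPL19 (3.12) encode mitochondrial ribosomal proteins, while MRX9 (2.33) and MRX18 (1.84) bear a name given to proteins of mitochondrial gene expression. Of 64 ribosome biogenesis genes 1 was called, NSR1, a nucleolin homologue (fold 3.90), or 1.56% (interval 0.0396 to 8.40%). Of 9 genes of proteins that ride on the ribosome, such as ASC1, 0 were called, which allows up to 33.3%. Sir2 and the mock IP touched 0 genes of these 5 lists, against 2.80% and 0.0666% of all genes.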

How the data were processed

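Peak lists in narrowPeak form were analysed for 3 IPs of budding yeast. The submitters' processing notes name BWA, MACS2 and the build sacCer3. Versions, cutoffs, the control library and any pooling of the 2 technical replicates in the design text are not given in the sources read. Each deposited fold is the authors' ratio of a peak's summit to the caller's local background, and was used only within a list. The deposited −log10 p and −log10 q values are the authors', and for 854 of 854 peaks the score they deposited equals 10 times the −log10 q without its decimals.

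Positions are 1-based. Genes were those of a RefSeq table for R64, the assembly behind sacCer3, with strand read from the W or C of the systematic name, since the table has no strand column. Annotated starts are those of the table's gene models. The nearest upstream neighbour was taken over genes of all kinds. Shares over RP genes were set beside shares over all 6002 nuclear protein-coding genes. Peaks overlapped a region where they shared at least 1 bp. Right chromosome ends were set at the last annotated gene or peak. Counting was checked on simulated peaks at known places. Python 3.11.15 with pandas 2.3.3, numpy 2.4.6 and scipy 1.17.1 was used.

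The members and gene lists were chosen with earlier results of these data known. Members with an upstream summit were named, apart from 2 not reported here by name, with their paralogues and divergent neighbours, and up to 5 called genes per other list; the choice of any other gene followed from its values. The planned search for motifs and the identity of paralogues needed sequences and were not run. The alternatives tried were stricter peak thresholds, shorter lists, removal of peaks over mock IP peaks, other promoter lengths, promoters ended at the next gene and any peak base; after seeing the data, members with another start nearer and RP promoters of 2 genes were left out.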

Additional observations from a re-analysis of the deposited data

How the results depend on the processing

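Sir2 counts at RP genes stayed at 0 in all alternatives, of which only longer promoters and any peak base could have raised them. Body summits, 0 in both lists, were recounted only with peaks removed, which cannot raise a 0. Removal of peaks over mock IP peaks left 692 of 692 Hst1 peaks, so it tested nothing. The Hst1 count of 14 RP genes with an upstream summit rested on weak peaks. It was 5 with −log10 q values of 10 or more (5.40% of all genes), 3 in the strongest 50% by fold (4.60%), 0 with the list cut to the 159 strongest peaks (2.23%) and 1 with a 250 bp promoter (2.45%). Under these 4 settings in turn, large-subunit genes had 2, 0, 0 and 0, small-subunit genes 3, 3, 0 and 1, divergent members 4, 3, 0 and 0, tandem members 1, 0, 0 and 1, copy A alone 2, 2, 0 and 0 pairs, and copy B alone 3, 1, 0 and 1. RP genes with any peak base, 18 in all, numbered 9, 7 and 4 under the first 3. Shares over all genes for the any-base and subset counts under these settings are not given here. Promoters ended at the next gene left 11 called members (8.03%), against 6.63% of all genes. Tandem members then numbered 3, and pairs with copy B alone 5. With 1000 bp promoters and with any peak base upstream, 1 pair had both copies called. These settings called 12.9% and 12.5% of all genes. With any base, 11 large-subunit genes (13.6%) were called. In a setting chosen after seeing the data, leaving out members with another start nearer to the summit gave 9. No share over all genes is given for that setting. Of 98 alternative values, 61 were within 1.5 times the main count and 37 were not. Most of the 61 were counts of 0 that stayed at 0 or came from the removal of peaks over mock IP peaks. The tally therefore does not measure how stable the other counts are. No paired analysis was possible because each IP had 1 list. Depth is unknown, so RP genes without a peak may lie below the detection limit of these lists.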
